A study of Danio rerio with 16 samples.

Results

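The genes described here clear glutamate from the space around neurons and turn it into glutamine. They are 8 transporters of the SLC1 family, namely slc1a1, slc1a2a, slc1a2b, slc1a3a, slc1a3b, slc1a6, slc1a7a and slc1a8b, and 2 glutamine synthetase genes, glula and glulb. Another glutamine synthetase gene, glulc, is no member and is described at the end. They were taken by symbol from a table of raw read counts per gene, after rows that share a symbol and differ only by a numbered ending had been summed. These 10 genes were held in 11 rows and were 10 of 30566 symbols. Of the 10 members, 7 passed the filter on low counts and were tested among 20241 genes. The members slc1a2a, slc1a8b and glulb did not pass it, and their counts are given without a fold change.

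The samples were cells sorted from whole brains of zebrafish aged 1 month, with 8 brains pooled for each library and 4 libraries in each of 4 groups. LH cells carried GCaMP6s fluorescence in the line Tg(76A:Gal4FF;UAS:GCaMP6s), which was used for the lateral hypothalamus, and non-LH cells were the GCaMP6s-negative cells of that line. cH cells carried GFP in the line Tg(116A:Gal4FF;UAS:GFP), used for the caudal hypothalamus, and non-cH cells were the GFP-negative cells of that line. All fish were transgenic, and the reporter in either line marks whatever brain cells the Gal4FF driver is active in, so the labels fix the population by its fluorescence and not by its position. Since whole brains were dissociated, the negative fractions hold cells of every brain region.

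Glutamate released at synapses is taken up with sodium by transporters of the SLC1 family. In mammals SLC1A2 and SLC1A3 are the transporters of astroglia, which convert the glutamate to glutamine with glutamine synthetase and hand the glutamine back to neurons. SLC1A1 is found on neurons in many regions, SLC1A6 is best known from cerebellar Purkinje cells, and SLC1A7 from the retina. Fish have radial glia in place of most star-shaped astrocytes, and several of these genes exist as a and b copies.

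Libraries held 26.8 M to 49.4 M counts. LH libraries had a count above 0 for 19430 to 20038 symbols, non-LH libraries for 20572 to 21015 and non-cH libraries for 18843 to 20542, but cH libraries for 13478 to 16887. cH libraries 1 and 2 had the lowest numbers of all libraries (13478 and 13663), so several of the differences between cH and non-cH are also given without them. The share of counts on 13 measured genes of radial glia and astroglia ran from 1.83% to 3.10% in cH libraries, from 0.246% to 0.337% in LH, from 0.272% to 0.376% in the non-LH and from 0.257% to 0.482% in the non-cH libraries. The share on 14 genes of neurons in general was 0.0968% to 0.293% in cH and 1.42% to 1.53% in LH. It was 1.63% to 1.78% in the non-LH and 1.70% to 1.92% in the non-cH libraries. Of these marker genes, 8 of 12 tested glial genes were higher and 13 of 14 neuronal genes were lower in cH than in non-cH, where 7.04% of all genes tested were called higher and 13.4% lower. Ependymal markers ran from 0.0163% to 0.0871% in cH libraries and from 0.0041% to 0.00733% in the non-cH libraries, with 3 of 6 genes higher and 0 lower. Erythrocyte markers ran from 0.0124% to 0.0217% in LH and from 0.302% to 0.443% in the non-LH libraries, with 5 of 6 genes lower, and in cH 1 was higher and 4 were lower. In cH against non-cH, 3 of 5 endothelial and 2 of 4 photoreceptor genes were lower, 2 of 9 hypothalamic genes went each way, and 0 of 9 oligodendrocyte and 0 of 4 microglial genes passed. Of 10 cerebellar Purkinje and granule cell genes tested, 3 were higher and 6 lower in cH. In LH against non-LH, 1 of 14 neuronal genes went each way, 1 of 9 hypothalamic genes was lower, and 0 genes passed in the ependymal, endothelial, photoreceptor, oligodendrocyte and microglial lists. The part of these marker differences in the results below was not tested. In bulk samples of this kind, fewer cells of a type and less RNA per cell cannot be told apart.

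cH cells were first compared with non-cH cells, which asks what the caudal hypothalamic reporter population expresses beside other brain cells. Both abundant glial transporters and glula were many-fold higher in cH. Levels are given as counts per M of the scaled library (CPM), and changes as log2 fold changes with the standard error (SE) of edgeR's quasi-likelihood test on all 16 libraries, with Benjamini-Hochberg adjusted p over all genes tested and a threshold of 0.05. Of the 7 members tested, 4 were higher and 0 were lower in cH, while 7.04% of all genes tested were called higher. The median log2 difference was 1.40 over the 7 members and -0.32 over all genes.

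slc1a2b, the fish counterpart of the main astroglial glutamate transporter, measured 36108, 24061, 49995 and 36799 CPM in cH libraries 1 to 4. In non-cH it measured 948, 925, 3536 and 2713 CPM. All cH libraries were far above all non-cH libraries, and within non-cH the last 2 libraries were well above the first 2. This gene alone took 3.35% ± 0.806 (SD, n = 4) of all counts of a cH library and 0.208% ± 0.136 of a non-cH library. It was higher in cH by a log2 fold change of 4.18 ± 0.52 (SE, adjusted p = 4.14e-05 by edgeR), and by 4.49 without cH libraries 1 and 2.

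slc1a3b, the counterpart of the second astroglial transporter, measured 1925, 2116, 7454 and 6830 CPM in cH. In non-cH it measured 101, 69.2, 235 and 155 CPM. The groups did not overlap, as for 7.68% of all genes with cH higher, although cH libraries 1 and 2 lay well below libraries 3 and 4. Its log2 fold change, 5.03 ± 0.52, was the largest among the members that passed (adjusted p = 8.28e-06 by edgeR), and it was 5.74 without cH libraries 1 and 2.

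glula, which encodes glutamine synthetase, measured 30705, 14118, 28057 and 25251 CPM in cH. In non-cH it measured 1330, 1245, 3467 and 2176 CPM. cH library 2 was the lowest of its group and still several-fold above the highest non-cH library. It took 2.22% ± 0.507 (SD, n = 4) of all counts of a cH library and 0.21% ± 0.108 of a non-cH library. Its log2 fold change was 3.58 ± 0.43 (adjusted p = 3.39e-05 by edgeR), and 3.77 without cH libraries 1 and 2.

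**Figure D1:**
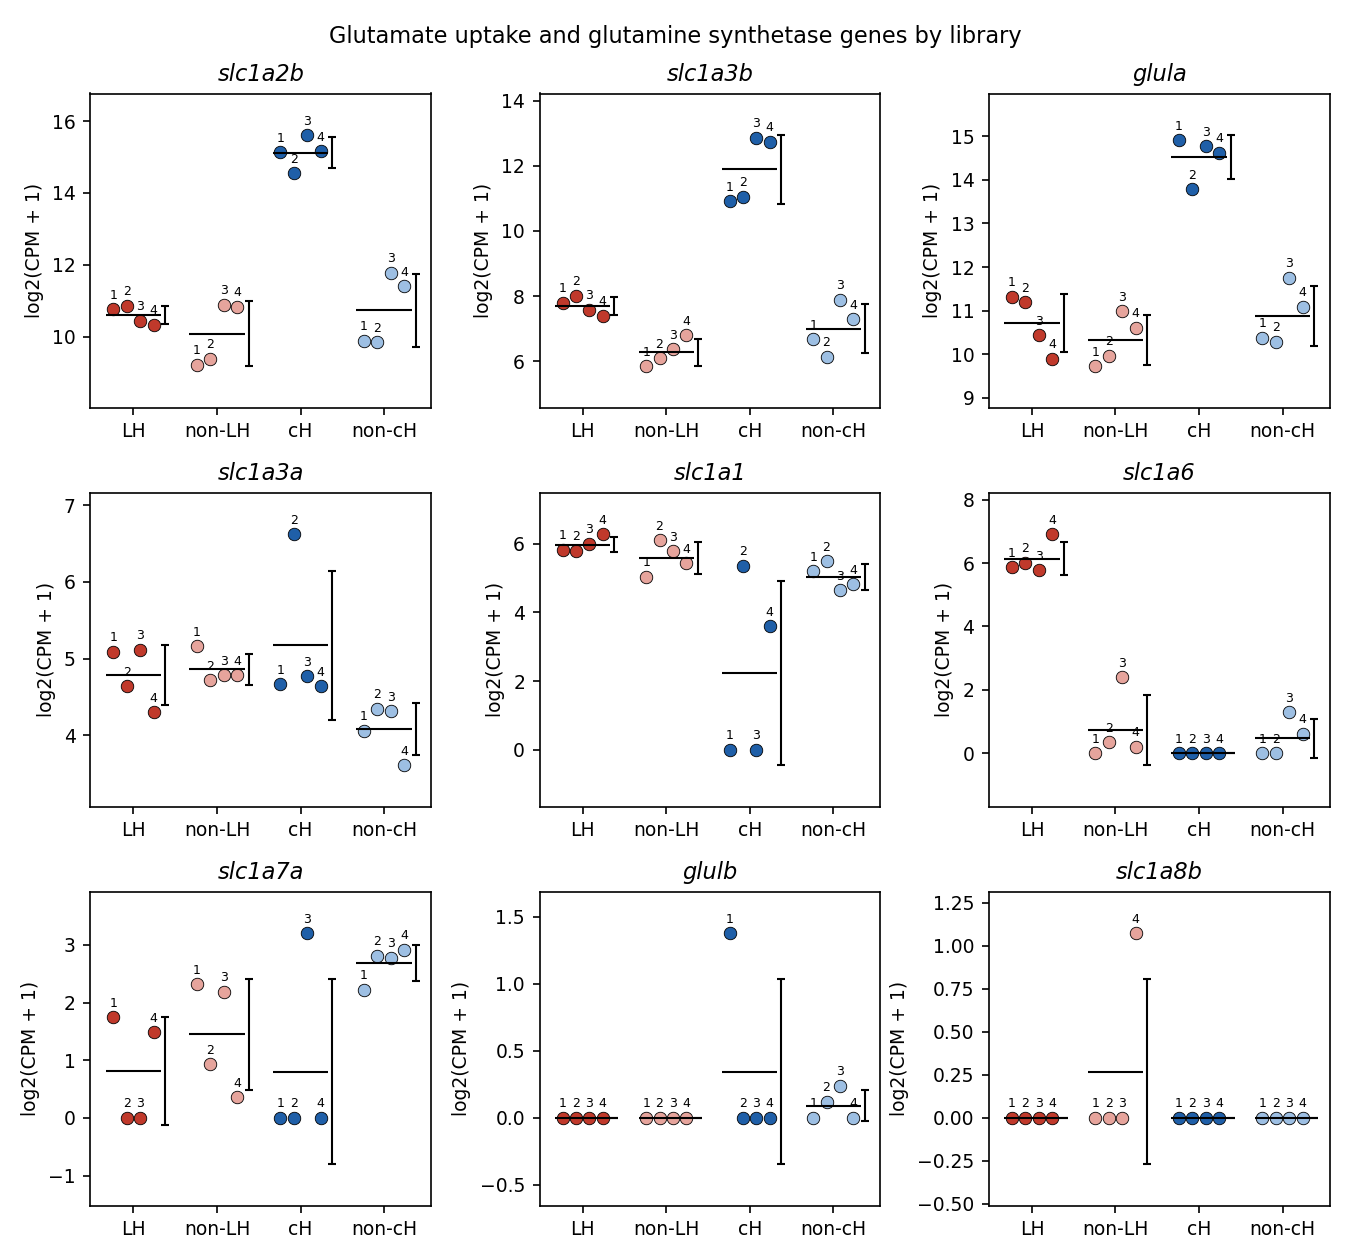
Level of each member with any count as log2(CPM + 1), by group. Points are single libraries with their replicate number, lines are means and bars are the SD over 4 libraries; axes differ between panels and slc1a2a, at 0 in all libraries, is not drawn. slc1a2b, slc1a3b and glula sit highest in all 4 cH libraries, and slc1a6 in all 4 LH libraries.

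slc1a3a, the second copy of the slc1a3 transporter, did not follow slc1a3b. It measured 24.4, 97.5, 26.2 and 23.9 CPM in cH and 15.7, 19.3, 18.9 and 11.2 CPM in non-cH. The groups did not overlap, but cH library 2 was far above the other cH libraries. The log2 fold change of 1.40 ± 0.47 passed the threshold narrowly (adjusted p = 0.0457 by edgeR). The call was lost in 12 of 16 fits that each left out 1 library. The size of the change rested on cH library 2. Without that library it was 0.65 (adjusted p = 0.147 by edgeR), and without cH libraries 1 and 2 it was 0.68 (adjusted p = 0.127 by edgeR). The call also failed when the 8 libraries of this line were fitted alone (1.41 ± 0.62, adjusted p = 0.233 by edgeR). Reads of slc1a3a per 100 reads of slc1a3b, a ratio that also carries the unequal transcript lengths of the genes, averaged 1.64 ± 2.02 (SD, n = 4) in cH libraries and 14.7 ± 9.60 in the non-cH libraries.

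Of the transporters called neuronal here, a set defined as neuronal or retinal, none of the 3 tested passed between cH and non-cH. slc1a1 measured 0, 39.9, 0 and 11.0 CPM in cH and 35.8, 43.6, 23.9 and 27.2 CPM in non-cH. It was at 0 in cH libraries 1 and 3, while cH library 2 lay within the range of non-cH. The log2 difference of -1.36 ± 1.32 did not pass (adjusted p = 0.532 by edgeR), nor did the -2.50 without cH libraries 1 and 2 (adjusted p = 0.11 by edgeR).

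slc1a6 had 0 counts in all 4 cH libraries, against 84 counts over the 4 non-cH libraries, all of them in libraries 3 and 4. With 3 counts over the whole group taken as the limit of detection, which covers counting error only, it was at least 21.8-fold lower in cH. That bound rests largely on non-cH library 3, which held 64 of the 84 counts; without it the bound, computed after the counts were seen, was 6.99-fold. The groups overlapped at 0. The test did not pass the threshold (adjusted p = 0.0755 by edgeR). That fit of 16 libraries included LH, which held most counts of slc1a6. When the 8 libraries of this line were fitted alone, slc1a6 missed the filter on low counts, and 6 members were tested. slc1a7a was at 0 in cH libraries 1, 2 and 4 and at 8.22 CPM in library 3, while all non-cH libraries held 3.67 to 6.54 CPM. Its difference did not pass either (adjusted p = 0.705 by edgeR), and it stayed on the failing side in 23 of 24 alternatives. The exception left out cH library 3, the only cH library with a count, which puts cH at 0 (adjusted p = 0.0175 by edgeR).

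LH cells were then compared with non-LH cells, the same question for the lateral hypothalamic population. In the fit of 16 libraries 0 of the 7 members passed, where 1.67% of all genes did. At an unadjusted p under 0.05 there were 2 members, slc1a6 and slc1a3b, beside 2054 of the 20241 genes tested. When the 8 libraries of this line were fitted alone, both passed, 2 of 7 members beside 13.4% of all genes. The larger fit estimates 1 spread over the 4 groups together, and without cH libraries 1 and 2 both genes passed in it as well (adjusted p = 0.0493 for slc1a6 and 0.0117 for slc1a3b by edgeR). Of 22022 genes tested without those libraries, 675 were called higher and 701 lower in LH.

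slc1a6 measured 57.2, 63.4, 53.5 and 120 CPM in LH. In non-LH it measured 0, 0.268, 4.25 and 0.154 CPM. Every LH library was above every non-LH library, and LH library 4 was the highest of its group. The log2 fold change was 5.97 ± 1.96 with 16 libraries (adjusted p = 0.225 by edgeR) and 5.99 ± 1.22 with 8 (adjusted p = 0.00939 by edgeR). An exact permutation test of the CPM, two-sided, gave p = 0.0286, the smallest that 4 against 4 libraries allow, before any adjustment. Groups that do not overlap with LH higher were found for 9.2% of all genes.

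Because slc1a6 is known from Purkinje cells, markers of the cerebellum were set beside it. pvalb7, a Purkinje marker in zebrafish, measured 53.0 ± 3.86 CPM in LH and 7.52 ± 1.17 CPM in non-LH (SD, n = 4; adjusted p = 0.15 with 16 libraries and 1.74e-05 with 8, by edgeR). aldoca, another Purkinje marker, measured 0.453 ± 0.617 and 0.556 ± 0.387 CPM, and ca8 measured 20.2 ± 10.2 and 15.6 ± 9.91 CPM. The list of 10 Purkinje and granule cell genes summed to 0.0671% to 0.123% of the counts in LH and 0.31% to 0.38% in non-LH. Of the 10, 0 were higher and 1 was lower in LH with 16 libraries, and 3 were higher and 5 lower with 8. Whether Purkinje cells contributed to slc1a6 in LH was not tested.

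slc1a3b measured 220, 257, 190 and 168 CPM in LH and 56.6, 66.9, 81.0 and 111 CPM in non-LH. The groups did not overlap, and the LH libraries were close to each other. The log2 fold change was 1.40 ± 0.45 with 16 libraries (adjusted p = 0.182 by edgeR) and 1.44 ± 0.21 with 8 (adjusted p = 0.00164 by edgeR). It also passed with DESeq2 (adjusted p = 0.0282), but it stayed on the failing side in 21 of 24 alternatives, every leave-one-out fit included (highest adjusted p = 0.434 by edgeR). slc1a6 did so in 21 of 23 (highest adjusted p = 0.472 by edgeR). Among 12 tested glial markers, LH was higher for 0 and lower for 3 with 16 libraries. Of all 20241 genes, 123 were higher and 215 lower in that fit. With 8 libraries 1 glial marker was higher and 4 were lower, and of 18674 genes 1334 were higher and 1165 lower.

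The other glial members showed no such difference. slc1a2b measured 1736, 1873, 1396 and 1293 CPM in LH and 600.3, 671, 1904 and 1837 CPM in non-LH. The LH libraries fell within the range of the non-LH libraries, of which the first 2 were low and the last 2 high. Its log2 difference of 0.33 ± 0.45 did not pass (adjusted p = 1 by edgeR). glula measured 2560, 2331, 1388 and 952 CPM in LH and 847, 997, 2025 and 1563 CPM in non-LH, with a log2 difference of 0.41 ± 0.39 (adjusted p = 1 by edgeR). slc1a3a was almost level, at 27.3 ± 7.26 CPM in LH and 28.3 ± 4.36 CPM in non-LH (SD, n = 4).

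Among the neuronal transporters other than slc1a6, slc1a1 measured 55.6, 54.4, 62.7 and 76.6 CPM in LH and 32.0, 67.9, 53.7 and 41.9 CPM in non-LH. The groups overlapped, with a log2 difference of 0.35 ± 1.30 (adjusted p = 1 by edgeR). slc1a7a was at 0 in LH libraries 2 and 3 and reached 2.36 CPM in LH, against 0.283 to 3.98 CPM in non-LH.

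**Figure D2:**
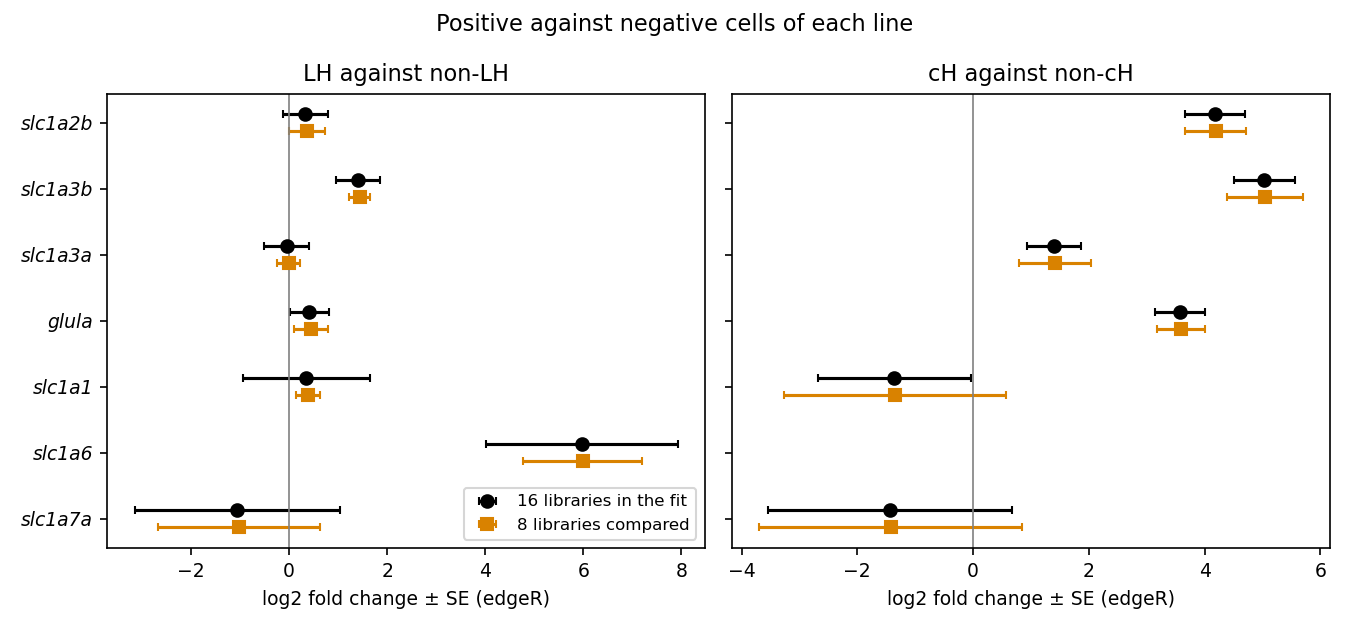
Log2 fold change with its SE for the 7 tested members, LH against non-LH on the left and cH against non-cH on the right, from the fit of 16 libraries (circles) and of the 8 libraries compared (squares). slc1a6 is not drawn for cH, where all libraries were at 0. In cH the values for slc1a2b, slc1a3b and glula exceed 3.5, and in LH slc1a6 and slc1a3b lie farthest above 0.

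The change in the positive cells was called different between the lines for 4 members, tested as the difference of both contrasts in the 16-library fit. For slc1a2b the LH contrast was lower than the cH contrast by -3.85 ± 0.66 on the log2 scale (adjusted p = 0.0012 by edgeR). For slc1a3b the difference was -3.63 ± 0.64 (adjusted p = 0.00145 by edgeR) and for glula -3.17 ± 0.57 (adjusted p = 0.00156 by edgeR). For slc1a6 it went the other way (adjusted p = 0.0192 by edgeR), with a size that cannot be read because cH was at 0. In the fit of the cH line alone slc1a6 missed the filter on low counts, so its call leans on a contrast without a usable cH level. Over all genes, 4.52% were called lower and 7.54% higher in this test. With DESeq2 0 members were called higher in the difference, beside 2449 of the 20241 genes tested. DESeq2 gave slc1a6 no adjusted p, so its fit holds no result on that call.

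LH and cH were also set side by side, though line, reporter and population differ together and cannot be told apart. In the 16-library fit 3 members were lower and 1 was higher in LH, where 8.77% of all genes were lower and 14.0% higher. slc1a2b was lower in LH by -4.54 ± 0.52, slc1a3b by -4.46 ± 0.51 and glula by -3.76 ± 0.44 on the log2 scale (adjusted p = 1.83e-05, 1.64e-05 and 1.88e-05 by edgeR). slc1a6 was at least 3353-fold higher in LH with the same limit of detection, which covers counting error only (adjusted p = 0.00403 by edgeR). Zeros in cH can vary by more than that, as slc1a1 was at 0 in cH libraries 1 and 3 and at 39.9 CPM in library 2. DESeq2 called 0 members higher in LH, beside 3905 of the 20241 genes tested, but it gave slc1a6 no adjusted p here either.

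slc1a1 separated LH from cH less firmly. All LH libraries were above all cH libraries, at 54.4 to 76.6 CPM against 0 to 39.9 CPM, and the exact permutation test gave p = 0.0286, unadjusted. Over all genes, 18.7% had non-overlapping groups with LH higher. The fit did not pass with 16 libraries (2.29 ± 1.36, adjusted p = 0.251 by edgeR). It stayed on the failing side in 22 of 23 alternatives (highest adjusted p = 0.561 by edgeR, with 8 libraries). The exception was the fit without cH libraries 1 and 2 (3.46, adjusted p = 0.0364 by edgeR). Of 22022 genes tested in that fit, 3959 were called higher in LH. The comparison shares its LH and cH libraries with the contrasts above and is no separate evidence of them.

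The negative fractions of both lines were compared last. In non-LH against non-cH 0 of 7 members passed in the edgeR fit, beside 0.00988% of all genes. At an unadjusted p under 0.05 there were also 0 members, beside 572 of the 20241 genes tested. slc1a3a was the only one of the 7 whose groups did not overlap, at 25.3 to 34.8 CPM in non-LH and 11.2 to 19.3 CPM in non-cH (log2 difference 0.80 ± 0.46, exact permutation p = 0.0286, adjusted p = 1 by edgeR), where 6.27% of all genes did not overlap. With the 8 negative libraries fitted alone, the unadjusted p was 0.00836 for slc1a3a (0.79 ± 0.24) and 0.0399 for slc1a3b (-0.83 ± 0.35), and neither passed after adjustment (0.388 and 0.574 by edgeR). The DESeq2 fit called 160 genes in this comparison, and 0 of the members.

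By level, slc1a2b, slc1a3b and glula were ordered cH first, with LH, non-LH and non-cH below. The lower groups of slc1a2b and glula overlapped one another, while slc1a3b in LH overlapped non-cH but not non-LH. slc1a6 was ordered LH, non-LH, non-cH and cH, and the last 3 did not separate beyond their spread. slc1a1 was ordered LH, non-LH, non-cH and cH, and each neighbouring pair overlapped. slc1a7a was highest in non-cH at 5.53 ± 1.27 CPM (SD, n = 4), but 1 non-LH library reached into its range and cH library 3 lay above it.

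The remaining 3 members were nearly absent. slc1a2a, the second copy of slc1a2, had 0 counts in all 16 libraries, which allows a level of up to 0.0648 to 0.107 CPM, depending on the library, by a floor of 3 counts per library. slc1a8b had 43 counts in non-LH library 4 and 0 in every other library. glulb, the other glutamine synthetase gene among the members, had 51 counts in cH library 1, 4 and 8 counts in non-cH libraries 2 and 3, and 0 elsewhere. One of the 2 rows of glulb was at 0 throughout. The files do not say how reads that map to more than 1 copy were counted, so a level near 0 of one copy beside an abundant copy is uncertain.

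Glial and neuronal transporters were summarised as the mean log2(CPM + 1) of 4 genes each, slc1a2a, slc1a2b, slc1a3a and slc1a3b against slc1a1, slc1a6, slc1a7a and slc1a8b. The set called neuronal was defined as neuronal or retinal. The glial minus neuronal difference was 7.29 ± 0.42 (SD, n = 4) in cH and 2.54 ± 0.495 in LH, with 3.30 ± 0.389 for the non-LH and 3.40 ± 0.34 for the non-cH libraries. The cH libraries, at 6.72 to 7.68, stood above every other library. LH ranged from 1.84 to 2.93 and overlapped non-LH, whose lowest library was at 2.92. For LH, non-LH, non-cH and cH the neuronal means were 3.23, 2.01, 2.05 and 0.759, and the glial means were 5.77, 5.31, 5.45 and 8.05 in the same order. The neuronal mean of LH exceeded that of non-LH mainly through slc1a6, at a mean of 73.5 against 1.17 CPM. slc1a1 was at 62.3 against 48.9 CPM, while slc1a7a (1.04 against 2.18) and slc1a8b (0 against 0.276) were lower in LH. These are descriptions with no test, since the genes were chosen with results in view. Each gene counts equally in its mean, slc1a2a at 0 included, and CPM takes no account of transcript length.

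**Figure D3:**
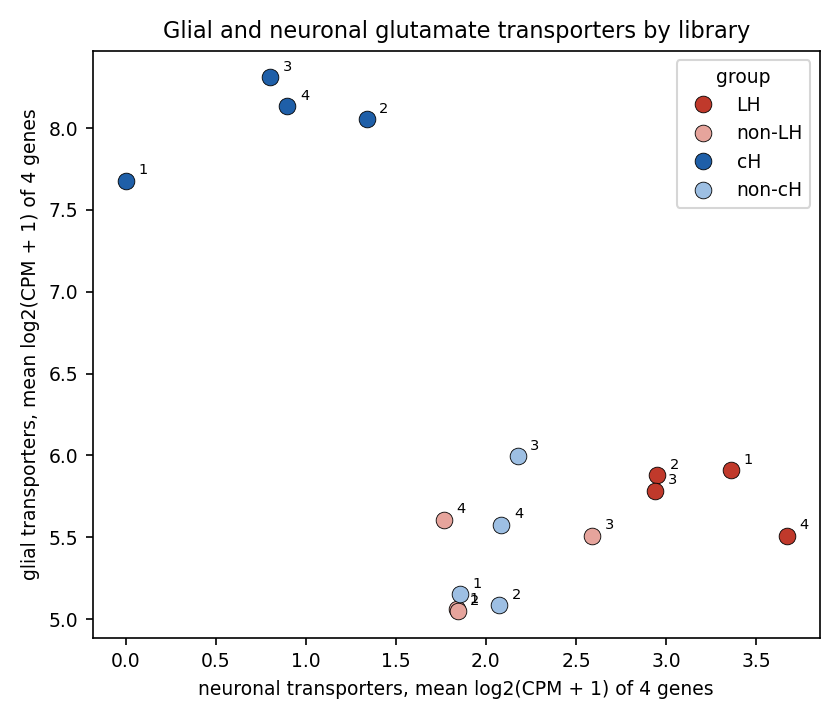
Mean log2(CPM + 1) of 4 neuronal transporters (horizontal) and 4 glial transporters (vertical) in each of the 16 libraries, with replicate numbers. The cH libraries sit at the upper left, the LH libraries at the lower right, and the negative fractions lie together between 1.77 and 2.59 on the neuronal axis.

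Ratios between members within a library do not depend on library scaling. Reads of glula per 100 reads of slc1a2b averaged 67.1 ± 13.1 in cH and 111 ± 31.8, 120 ± 29.8 and 113 ± 29.0 in LH, non-LH and non-cH (SD, n = 4). Outside cH the ratio followed the replicate number. Libraries 1 and 2 held 124 to 149 in all 3 groups, library 3 held 98.1 to 106, and library 4 held 73.6 to 85.1. In cH the values were 85.0, 58.7, 56.1 and 68.6, without that order. The same numbers split slc1a2b in the negative fractions, where libraries 1 and 2 held 600.3 to 948 CPM and libraries 3 and 4 held 1837 to 3536 CPM. The labels do not say what a replicate number shares across groups, and its part in these values was not tested.

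Reads of slc1a3b per 100 reads of slc1a2b were nearly constant in LH, at 12.7, 13.7, 13.6 and 13.0. They were lower in every non-LH library, at 9.42, 9.97, 4.26 and 6.03. In cH they spread from 5.33 and 8.80 in libraries 1 and 2 to 14.9 and 18.6 in libraries 3 and 4, and in non-cH from 5.73 to 10.6.

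**Figure D4:**
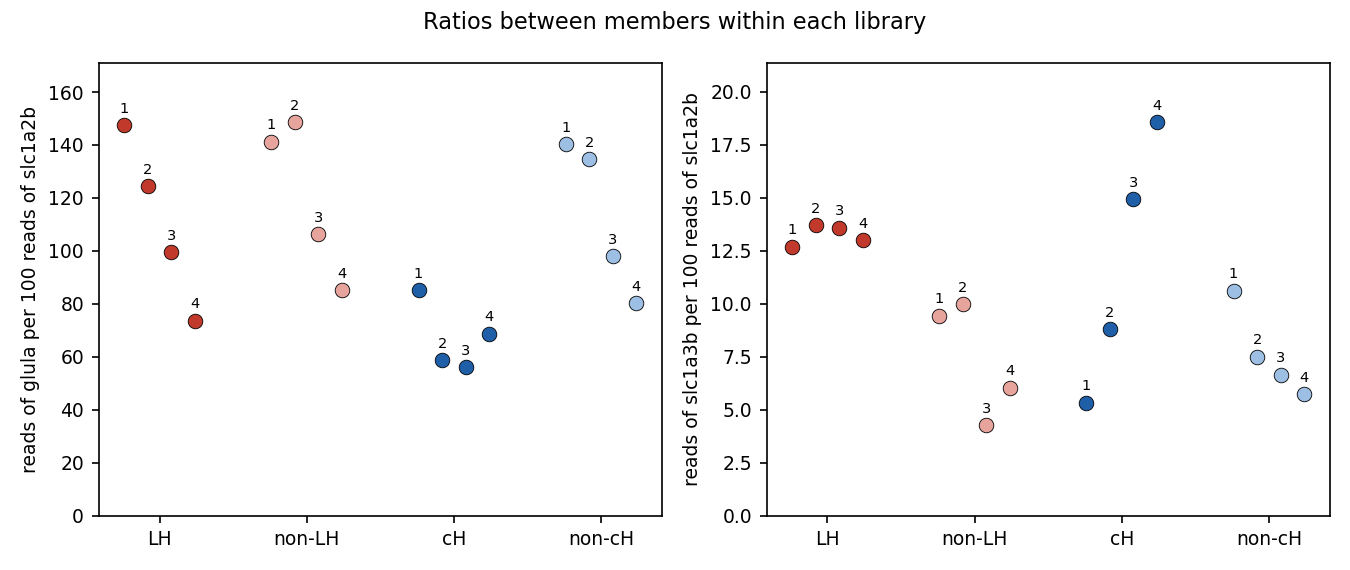
Reads of glula (left) and slc1a3b (right) per 100 reads of slc1a2b in each library, by group; points are libraries with replicate numbers and both axes start at 0. Outside cH the glula ratio is 124 to 149 in libraries 1 and 2 and 73.6 to 106 in libraries 3 and 4, and the slc1a3b ratio in LH stays between 12.7 and 13.7.

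The rest of the glutamate and glutamine cycle was described with 7 lists. In cH against non-cH the glutamine transporters went both ways, with 1 higher and 4 lower of 6 tested, where 7.04% of all genes were higher and 13.4% lower. slc38a3a, whose mammalian counterpart releases glutamine from astroglia, rose from 27.9 ± 7.62 CPM in non-cH to 153 ± 48.8 CPM in cH (log2 fold change 2.46 ± 0.34, adjusted p = 1.06e-04 by edgeR). slc38a2, a sodium-coupled transporter that takes up glutamine, fell from 408 ± 33.8 to 101 ± 15.7 CPM (-2.02 ± 0.14, adjusted p = 2.64e-07 by edgeR). slc38a4, a transporter of the same family, fell from 85.9 ± 9.31 to 22.6 ± 12.6 CPM (-1.93 ± 0.33, adjusted p = 6.93e-04 by edgeR). The list median was -1.97 on the log2 scale.

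Genes that make or consume glutamate in the cell were higher in 4 of 9 cases and lower in 0. glud1b, glutamate dehydrogenase, measured 390 ± 90.6 CPM in cH and 153 ± 38.7 CPM in non-cH (1.35 ± 0.20, adjusted p = 2.26e-04 by edgeR). got2a, a mitochondrial aspartate aminotransferase, measured 95.5 ± 44.2 and 27.2 ± 6.10 CPM (1.81 ± 0.33, adjusted p = 0.00111 by edgeR). abat, which breaks down GABA, measured 166 ± 44.9 and 39.8 ± 12.3 CPM (2.06 ± 0.41, adjusted p = 0.00203 by edgeR). The glutaminase genes glsa and glsb, which turn glutamine back into glutamate, did not pass in either contrast (0 of 2 tested).

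For the cystine and glutamate exchanger, slc3a2a, its heavy-chain partner, rose from 18.9 ± 8.26 to 159 ± 54.8 CPM in cH (3.07 ± 0.44, adjusted p = 1.45e-04 by edgeR), 1 of 3 genes tested. slc7a11, the exchanger itself, measured 73.8 ± 52.0 CPM in cH and 3.28 ± 3.55 CPM in non-cH and did not pass (4.49 ± 1.86, adjusted p = 0.103 by edgeR). The list of sodium, potassium and lactate handling in astroglia had 3 higher and 3 lower of 11. slc4a4a, a sodium bicarbonate cotransporter, rose from 197 ± 133 to 3294 ± 837 CPM (4.07 ± 0.59, adjusted p = 1.67e-04 by edgeR). atp1b2a, a sodium pump subunit, fell from 1008 ± 138 to 383 ± 136 CPM (-1.40 ± 0.23, adjusted p = 4.02e-04 by edgeR). The lactate transporter slc16a3a, listed under the older name si:ch211-234h8.7, had 4 counts over the cH and 1368 over the non-cH libraries (adjusted p = 3.50e-04 by edgeR). Of the other SLC1 transporters, 0 of 3 tested passed.

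The vesicular glutamate transporter slc17a6a, which fills synaptic vesicles in glutamatergic neurons, was the only gene of the 7 lists called in LH against non-LH with 16 libraries. It rose from 114 ± 21.7 CPM in non-LH to 345 ± 74.0 CPM in LH (SD, n = 4), with 1.60 ± 0.37 on the log2 scale (adjusted p = 0.041 by edgeR). In cH it had 2 counts against 20038 in non-cH, a ratio 7789-fold lower with an exact 95% interval of 2156 to 64319 that covers counting error only (adjusted p = 1.67e-08 by edgeR). It was 1 of 5 vesicular transporters tested, whose median log2 difference in LH was -1.56, opposite in sign to slc17a6a, and it was the 1 that was lower in cH.

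**Figure D5:**
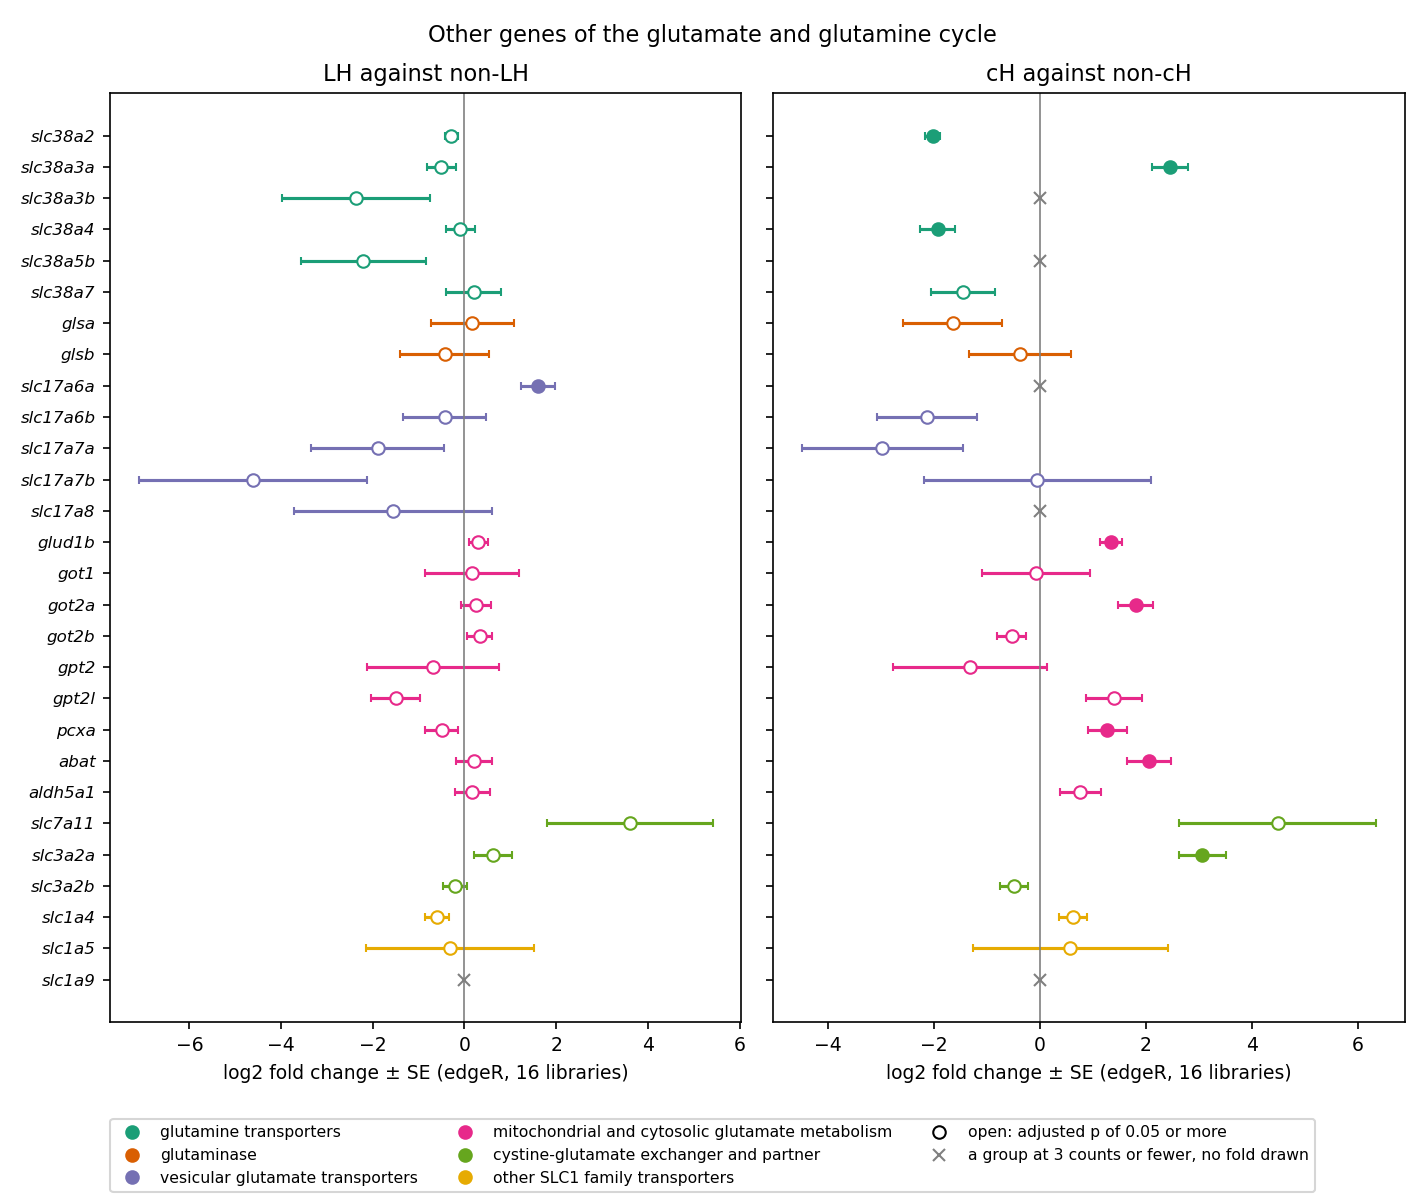
Log2 fold change with its SE (edgeR, 16 libraries) for the tested genes of 6 lists of the glutamate and glutamine cycle, LH against non-LH on the left and cH against non-cH on the right. Filled points passed an adjusted p of 0.05, open points did not, and crosses mark genes with 3 counts or fewer in a group, for which no fold is drawn. slc17a6a is the only filled point for LH, while for cH slc38a3a and slc3a2a lie to the right and slc38a2 and slc38a4 to the left.

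Genes whose pattern was most like that of slc1a2b were ranked by the root mean square difference of centred log2(CPM + 1) over the 16 libraries. The candidates were 9486 tested genes with a mean of at least 10 CPM and an established symbol. Symbols that hold a colon or begin with LOC or zgc were left out. The closest were atp1b4 (difference 0.287), cx43 (0.328), acsl2 (0.339), rpe65c (0.349) and slc6a11b (0.403), where the median gene differed by 2.46. glula ranked 9 and slc1a3b ranked 22 in that order, and slc1a3a ranked 2274. cx43, the gap junction gene of the glial list, averaged 9934 ± 2355 CPM (SD, n = 4) over the cH and 562 ± 450 CPM over the non-cH libraries. The genes most like slc1a1 were shisa7b (0.386), lhfpl4a (0.392), rfng (0.421), nol4la (0.474) and slc7a8a (0.521). shisa7b averaged 125 ± 25.9 CPM in LH and 82.9 ± 15.3 CPM in non-LH, with 23.4 ± 37.7 CPM for the cH and 58.0 ± 15.5 CPM for the non-cH libraries.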

How the data were processed

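Counts are the only unit used: the authors deposited raw, unnormalised counts in 1 table for the 16 libraries. SMARTSeq v2 amplification and the Nextera XT kit made the libraries, per the labels' protocols. FastQC, STAR and GRCz11 are named by the submitters' processing notes, without versions. How the reads were counted, with which annotation, with or without strand, and with what rule for multi-mapping reads is not given in the sources used here. Of 47038 rows, 9 that held no gene name or count were left out, and rows of a symbol were summed to 30566 symbols. PCR duplicates cannot be removed without molecular identifiers, so limits of detection and intervals cover counting error only.

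Libraries were scaled with TMM, and CPM is the count per M of the scaled library. edgeR 4.0.16 under R 4.3.3 tested 20241 genes kept by filterByExpr (minimum count 10, minimum total count 15) with the robust quasi-likelihood F test on 4 group means, two-sided. The SE was taken as the size of the log2 fold change over the root of F. Alternatives were rows as deposited, fits of 8 libraries, DESeq2 1.42.0 and its size factors, total counts, no filter, cH libraries 1 and 2 left out, a replicate block and each library left out in turn. Single values were compared with exact permutation tests. Replicates are pools of separate brains, per the labels.

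The 10 members, 7 pathway lists, 10 marker lists and the naming rule were chosen with earlier results of these data known. The rule names all 10 members, from each pathway list at most 3 called genes per contrast by smallest p, and the 5 genes most like slc1a2b and slc1a1. Of 141 list symbols 137 were found, some by a synonym from RefSeq's GRCz12tu annotation, of which no coordinates are printed. slc7a11, glsa, glsb, glulc and the marker genes were named outside the rule, after their values were seen. No sequences were used here.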

Additional observations from a re-analysis of the deposited data

Results flagged for a closer look

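In 7 cases 1 library stood apart from the other 3 of its group, by a gap beyond the 95% critical value of Dixon's ratio. For normally distributed values chance gives this in about 1 of 20 groups. slc1a3a measured 97.5 CPM in cH library 2 and 34.8 CPM in non-LH library 1. slc1a6 measured 120 CPM in LH library 4 and 4.25 CPM in non-LH library 3. slc1a7a measured 8.22 CPM in cH library 3, slc1a8b measured 1.105 CPM in non-LH library 4, and glulb measured 1.60 CPM in cH library 1. In these last 3 cases the other libraries of the group were at 0, so the ratio took its largest value whatever the size of the count.

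For 4 members the change in positive cells was called different between the lines by the test of the difference itself (edgeR, 16 libraries). On the log2 scale the difference of LH minus non-LH and cH minus non-cH was -3.85 for slc1a2b, -3.63 for slc1a3b, -3.17 for glula and 13.2 for slc1a6. The value for slc1a6 is a fitted one against cH libraries that were all at 0, and its size depends on how the fit treats zeros. DESeq2 gave slc1a6 no adjusted p in this test.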

How the results depend on the processing

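The cH calls of slc1a2b, slc1a3b and glula kept their direction and their side of the threshold in all 24 alternatives, with log2 values of 3.94 to 4.59, 4.75 to 5.74 and 3.40 to 3.95. The call of slc1a3a held in 7 of 24. Counts of called genes moved most. LH against non-LH gave 338 genes with 16 libraries, 2499 with 8, 1152 with DESeq2 and 1376 without cH libraries 1 and 2. cH against non-cH gave 4137, and 2054 with 8 libraries; LH against cH gave 4606, and 2314 with 8. Non-LH against non-cH gave 2, and 30 with rows as deposited, 13 with 8 libraries, 160 with DESeq2 and 13 without cH libraries 1 and 2. The difference of both contrasts gave 2440, and 4150 with DESeq2 and 4697 without cH libraries 1 and 2. The cause of these moves was not tested. Leaving out 1 library in turn gave 151 to 617, 3326 to 4899, 3709 to 5502, 0 to 5 and 1870 to 3386 genes in the same order of comparisons. With total counts the median of all genes moved from -0.32 to -0.45 in cH against non-cH and from 0.24 to 0.39 in LH against cH, and slc1a2b in cH moved with it from 4.18 to 4.01.

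Signs turned for slc1a3a, slc1a6 and slc1a7a. slc1a3a in LH against non-LH was -0.05, but 0.018 with DESeq2 and 0.018 with its size factors (leave-one-out -0.14 to 0.13). In LH against cH it was -0.65, but 0.10 without cH libraries 1 and 2 (leave-one-out -0.85 to 0.13). slc1a7a in the difference of contrasts was -0.66 without cH libraries 1 and 2 (leave-one-out -0.44 to 9.73), and in LH against cH its leave-one-out range was -1.78 to 8.39, the upper end without cH library 3. With 1 library left out, slc1a6 in non-LH against non-cH ranged from -1.79 to 2.74, and in cH against non-cH its adjusted p ranged from 0.0480 to 0.174 (edgeR). The glial minus neuronal difference with a pseudocount of 0.1 was 9.16 in cH, and 3.81 and 3.98 in the non-LH and the non-cH libraries; leaving out 1 library gave 2.41 to 2.78 in LH, 7.16 to 7.48 in cH, and 3.12 to 3.42 and 3.27 to 3.54 in the non-LH and the non-cH libraries.

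Same-numbered positive and negative libraries deviated together little or not at all, with correlations of -0.0094 to 0.040 over 8 pairs. Of the positive libraries, 5 of 8 were closest to their own number. Every cH library was closest to its own number, at correlations of 0.029, 0.021, 0.040 and 0.011 in replicate order. Because all these correlations were small, the samples were not treated as paired. The ratio of glula to slc1a2b, which went with the number outside cH, was not part of that check. A replicate block within each line gave 95 genes in LH against non-LH, 2925 in cH against non-cH and 1529 in the difference of contrasts. With the block, slc1a3a in cH was 1.12 (adjusted p = 0.128, edgeR) and slc1a6 in the difference of contrasts had an adjusted p of 0.0663. Genes at a few counts per library are limited by depth.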

Other observations

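Another glutamine synthetase gene, glulc, is no member of the list and was looked at after its values were seen. It had 39, 129, 172 and 90 counts in LH libraries 1 to 4, 5 counts over the 4 non-LH libraries, 0 in cH and 6 in non-cH. At 2.95 ± 1.70 CPM in LH (SD, n = 4) it was low, and all LH libraries were above all others. LH against non-LH had an adjusted p of 0.191 with 16 libraries and 0.0129 with 8 (edgeR), and an exact permutation test gave p = 0.0286 before adjustment. As with glulb, how reads shared between copies were counted is not known.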
